A study of Homo sapiens with 6 samples.

Results

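BaF3-T315I is a murine blood cell line that stably carries BCR-ABL with the T315I mutation, a kinase fusion that drives chronic myeloid leukemia and that in this mutant form resists imatinib. Its mRNA was sequenced in 3 control samples and in 3 samples treated with I13 at 1.1 µM, an inhibitor of histone deacetylases made from indole-3-butyric acid. The exposure of the sequenced cells was 48 h. What the controls received, and for how long, is not stated in the labels, all 6 samples carry the same BCR-ABL construct, and whether the replicates are separate cultures is not stated either, so p-values measure only the spread between these samples. Of the 22413 mouse genes listed, 43 that act in mitosis are described here. They were picked by name, for the roles of their proteins as mitotic kinases and cyclins, spindle motors and checkpoint or kinetochore proteins. Earlier results of these data were known when they were picked. The study also measured the cell cycle by DNA content, and the mRNA of these genes bears on its last phases.

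A cell enters mitosis when Cdk1, bound to cyclin B or cyclin A, is freed of its inhibitory phosphates by Cdc25 phosphatases. Plk1 and the aurora kinases then drive the building of the spindle, kinesins slide and move its microtubules, and kinetochores join each chromosome to them. The checkpoint proteins hold back the anaphase-promoting complex until all chromosomes are attached, after which securin and the cyclins are destroyed, separase opens the cohesin rings and the cell divides. The mRNA of most of these genes climbs in G2 and mitosis and is low in resting cells, partly through the transcription factor Foxm1, which is why Mki67, Top2a and their like serve as marks of dividing cells. In a bulk culture, a smaller share of cells in G2 and mitosis and less mRNA per cell cannot be told apart.

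The libraries held between 16762119 and 17722950 fragments, worked back from the values, so depth differed little between groups. Ptprc and the interleukin-3 receptor genes Il3ra, Csf2rb and Csf2rb2 were present in all 6 libraries. Csf2rb and Csf2rb2 were higher after I13, by 0.83 and 1.02 on the log2 scale. Their adjusted p values by limma were 0.22 and 0.165 without a block, and 0.0313 and 0.0312 with the replicate number as a block. Of the B lineage genes, Cd79a and Cd79b were present at 14.1 to 27.5 and 3.57 to 6.94 FPKM. In contrast, Ebf1, Pax5 and Igll1 had at most 1 fragment in any library, and Vpreb1 at most 2. For markers of T cells and fibroblasts the highest library reached 6 fragments for Cd8a and 15 for Col1a1. The red cell marker Hba-a1 had 3 to 81 fragments, with 1.18, 0.21 and 0.56 FPKM in the controls and 5.66, 2.94 and 2.11 FPKM after I13. Its adjusted p by limma was 0.116 without the block and 0.0384 with it. Among 3 macrophage markers Csf1r and Mrc1 had at most 6 and 3 fragments. Adgre1 had 37.6, 18.1 and 40.1 FPKM in the control samples and, in the same order of replicates, 72.1, 44.1 and 76.7 FPKM after I13. For Adgre1 the adjusted p by limma was 0.18 without the block and 0.0308 with it. The part of these differences in the results below was not tested.

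The 43 mitotic genes did not move together after I13. Cdc25b, the phosphatase that starts Cdk1 activation, fell by 36.4% in mean level (n = 3 against 3, past the test when same-numbered samples were paired), and the kinases Plk1, Aurka, Aurkb and Nek2, the factor Foxm1, the separase Espl1 and the depolymerising kinesin Kif2c had lower values that did not pass the test on FPKM, paired or not. For Cdk1 and the cyclins the log2 fold changes lay between -0.15 and -0.01. At the other end, the giant kinetochore proteins Cenpe and Cenpf, the kinesin Kif20b and the proliferation antigen Mki67 had higher values. None of these 4 passed the test on FPKM, paired or not, while Cenpf and Kif20b passed in a paired fit of the fragment counts. In that fit 9 of the 43 had an adjusted p below 0.05, against 12.4% of all genes tested. Of these 9 genes 7 were lower, and among the 7 only Cdc25b reached the fold change threshold given below. The values were compared as log2(FPKM + 0.1), where FPKM is the number of fragments on a gene per kilobase of its length and by the library's fragment total. The linear model of limma was fitted to all 12163 genes whose FPKM averaged 0.5 or more, and all 43 mitotic genes were among them. To be called, a gene needed a log2 fold change of at least 0.58 in size and a Benjamini-Hochberg adjusted p below 0.05.

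Without pairing the samples, 0 of the 43 genes were called, where 0.0329% of all genes tested were called higher and 0.00822% lower, and 0.0411% had an adjusted p below 0.05 with limma. At an unadjusted p below 0.05 by limma, 9 of the 43 were lower and 3 were higher, against 10.8% and 7.79% of all genes tested. The labels do not state that same-numbered samples are pairs. Same-numbered control and I13 samples deviated together in these same values, so the replicate number was also used as a block. Results with the block depend on this pairing, and whether the numbers agreed by chance was not tested. With the replicate block, Cdc25b was called lower (1 of 43, against 0.526% of all genes), 0 were called higher (against 1.36%), and Cdc25b was the 1 gene with an adjusted p below 0.05 (against 2.99%). The recovered fragments, weighted by voom and fitted with the same block, gave 9 genes with an adjusted p below 0.05, against 12.4% of all genes. Of these, Cenpf and Kif20b were called higher (2 of 43, against 3.08%) and Cdc25b was called lower (1 of 43, against 1.05%), while Plk1, Aurka, Aurkb, Espl1, Kif2c and Foxm1 were lower by less than the fold change threshold. Fitted by voom without the block, 0 were called.

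**Figure D1:**
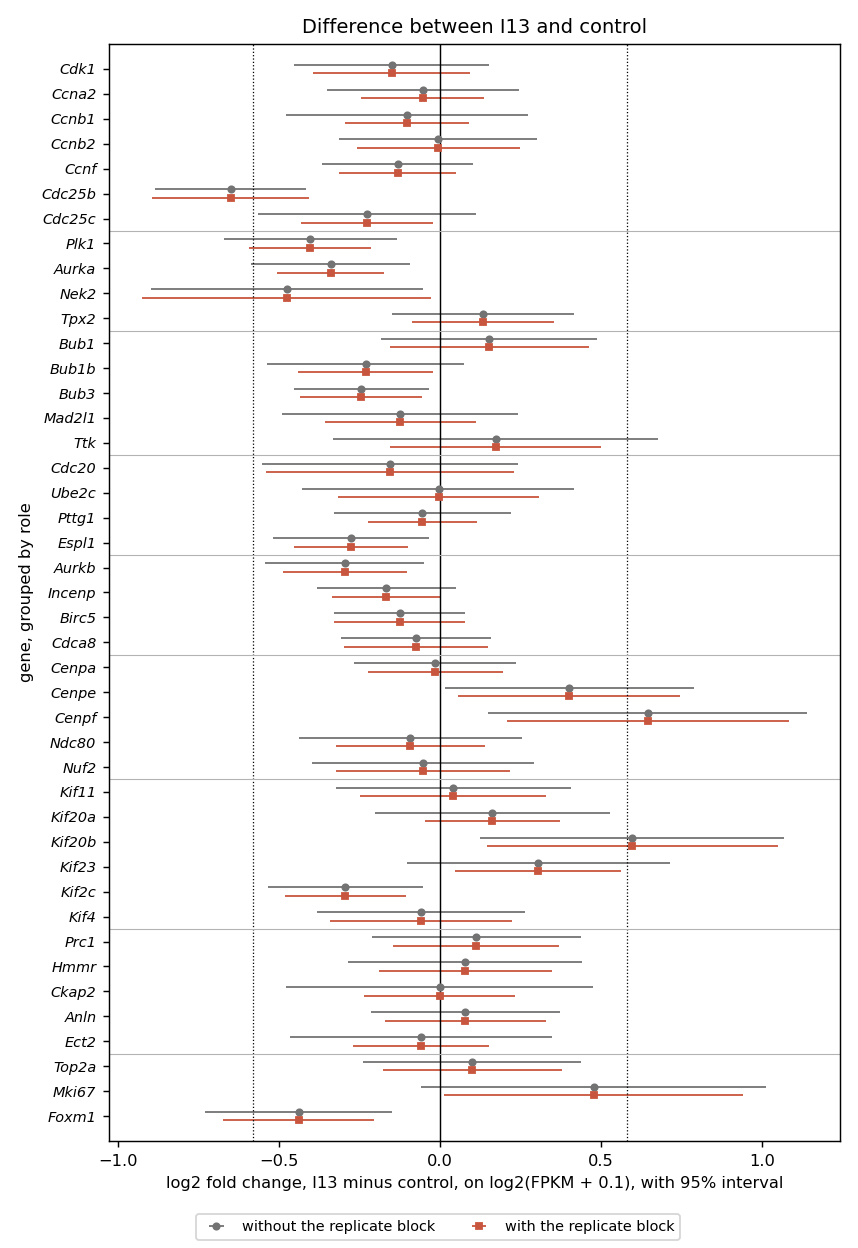
Log2 fold change of the 43 mitotic genes (I13 minus control on log2(FPKM + 0.1), horizontal axis) with its 95% interval, in the fit without the replicate block (grey circles) and with it (red squares). Genes are grouped by role, and dotted lines mark the threshold of 0.58 in either direction. Cdc25b, at -0.65, is farthest to the left, and Cenpf, at 0.64, and Kif20b, at 0.60, are farthest to the right.

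The direction was negative for 29 of the 43 genes (67.4%), where 50.8% of all genes tested were negative, and the median log2 fold change was -0.058 against -0.005. In 10 genes every I13 value lay below every control value, and in 3 genes every I13 value lay above, against 15.4% and 9.82% of all genes tested. The 10 were Cdc25b, Plk1, Aurka, Aurkb, Bub3, Espl1, Incenp, Birc5, Kif2c and Foxm1, and the 3 were Cenpe, Cenpf and Kif20b. Read pair by pair, 15 genes were lower after I13 in all 3 same-numbered pairs and 5 were higher in all 3, and over all genes tested these shares were 27.3% and 24.1%.

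A pattern of single libraries ran across the 43 genes. I13 replicate 3 held the lowest of the 3 I13 values in 40 of the 43 genes (93.0%), where it did so in 48% of all genes tested. The exceptions were Cdc20, Cdca8 and Cenpa, whose lowest I13 value came from replicate 1. Control replicate 2 held the highest control value in 33 genes (76.7%, against 43.5% of all genes). The median of the 43 genes, each taken relative to its own mean over the 6 libraries on the log2 scale, was -0.029, 0.163 and -0.064 in control replicates 1, 2 and 3 and 0.034, 0.110 and -0.253 in I13 replicates 1, 2 and 3. The same median over all genes tested ran from -0.065 in I13 replicate 3 to 0.055 in control replicate 2. In pair 1 the I13 sample was lower in 20 of the 43 genes, in pair 2 in 23 and in pair 3 in 35, and the median log2 differences were 0.064, -0.021 and -0.191. Without I13 replicate 3 the fit gave 17 negative genes and a median of 0.040, and without control replicate 2 it gave 20 and 0.003. The part of these libraries in the results was not tested further.

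**Figure D2:**
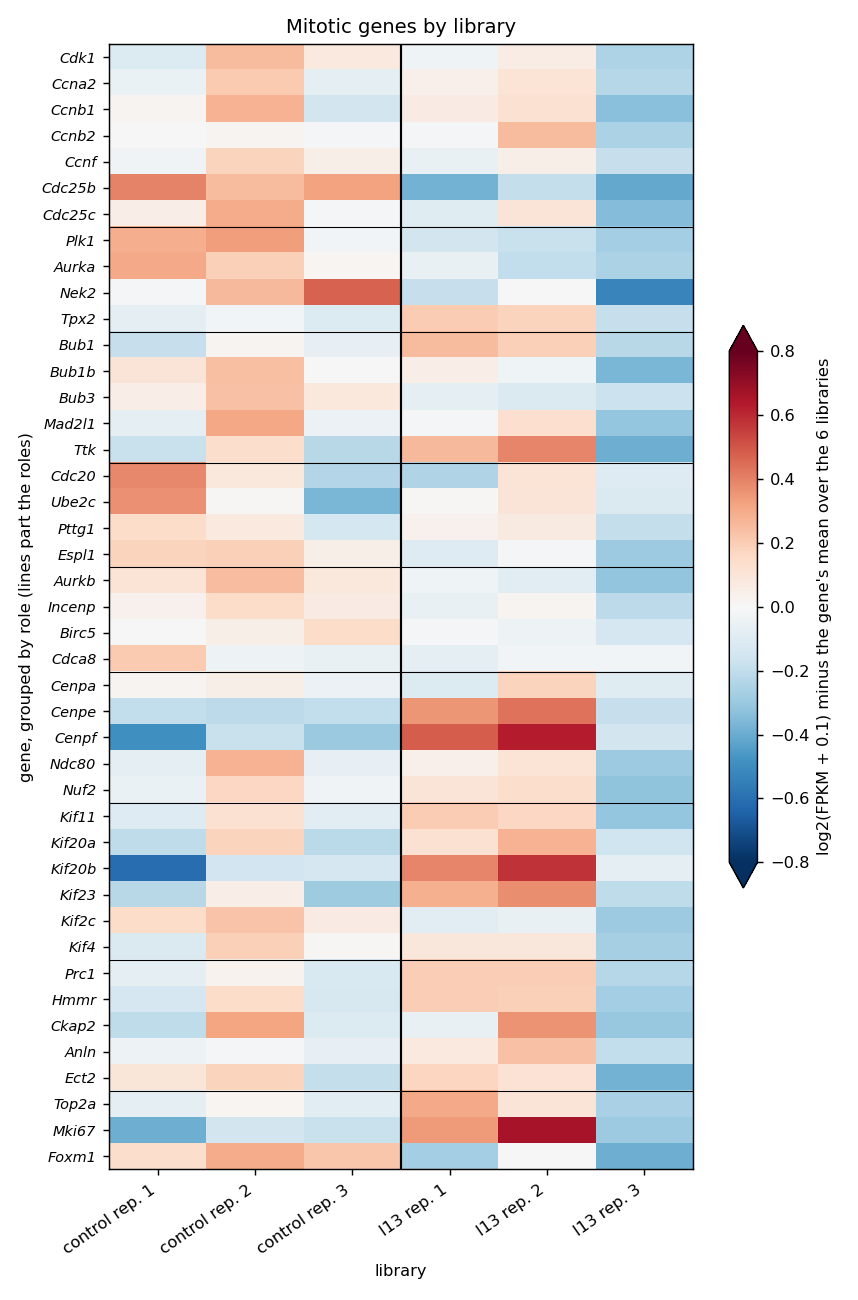
Each row is a mitotic gene and each column a library, coloured by log2(FPKM + 0.1) minus that gene's mean over the 6 libraries (red above, blue below). Horizontal lines part the roles and the vertical line parts control from I13. The column of I13 replicate 3 is blue in nearly all rows, with a median of -0.253, and Cdc25b is red in all controls and blue in all I13 libraries.

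Entry into mitosis is governed by Cdk1, its cyclins and the Cdc25 phosphatases. Cdc25b (ENSMUSG00000027330) had 16.0, 14.4 and 15.2 FPKM in the controls, in the order of replicates 1, 2 and 3 that is kept throughout, and 9.30, 10.6 and 9.10 FPKM after I13. All I13 values lay below all controls, and the log2 differences within pairs 1, 2 and 3 were -0.78, -0.45 and -0.73. Mean levels were 15.2 ± 0.766 FPKM in the controls and 9.66 ± 0.801 FPKM after I13 (SD, n = 3 in either group), with a log2 fold change of -0.65 (SE, the standard error of the fit, 0.10, adjusted p = 0.0860 by limma, and 0.0447 with the replicate block). At least 594 fragments stood behind each value. Leaving out pair 1, 2 or 3 in the fit with the block gave log2 fold changes of -0.59, -0.75 and -0.61. The adjusted p values by limma were 0.0879, 0.284 and 0.102. Such fits keep only 1 residual degree of freedom. They called 83 of all genes tested without pair 1, and 0 without pair 2 or without pair 3. The lost call therefore cannot show whether it rested on any 1 pair. Cdc25c, a phosphatase with a like role that acts at mitotic onset, had a log2 fold change of -0.23 (95% interval -0.56 to 0.11).

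Cdk1 was present at 20.7, 26.7 and 23.6 FPKM in the controls and at 21.8, 23.2 and 18.8 FPKM after I13. The groups overlapped, and the log2 fold change was -0.15 (SE 0.13, 95% interval -0.45 to 0.15, adjusted p = 0.563 by limma). Ccna2, the cyclin of S phase and early mitosis, stood at 46.5, 56.0 and 45.7 FPKM in the controls and at 49.6, 52.1 and 41.2 FPKM after I13, a log2 fold change of -0.05 (95% interval -0.35 to 0.24, adjusted p = 0.850 by limma). For Ccnb1, the main mitotic partner of Cdk1, the values were 39.6, 47.3 and 35.2 FPKM in the controls and 40.8, 42.4 and 30.9 FPKM after I13. In both groups replicate 2 was the highest and replicate 3 the lowest, and the log2 fold change was -0.10 (95% interval -0.48 to 0.27, adjusted p = 0.762 by limma). Ccnb2, the other B-type cyclin, was the second most abundant of the 43 genes and differed by -0.01, and Ccnf, which marks proteins for destruction in G2, by -0.13. All 7 genes of this role had a negative log2 fold change, and Cdc25b was the only one of them past a threshold in any of the 3 fits described, those with limma and those with voom and the block.

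Among the mitotic kinases, Plk1, which acts from centrosome maturation to cytokinesis, was the most abundant. Its values were 88.4, 91.1 and 71.2 FPKM in the controls and 65.2, 63.7 and 59.7 FPKM after I13, so control replicate 3 was the nearest to the treated samples and the groups did not overlap. The log2 fold change was -0.40 (SE 0.11, adjusted p = 0.151 by limma, 0.0563 with the replicate block and 0.0179 by voom with the block). Aurka, the kinase of the spindle poles, stood at 54.2, 49.99 and 44.4 FPKM in the controls and at 42.0, 38.3 and 36.8 FPKM after I13, again without overlap. Its log2 fold change was -0.34 (SE 0.10, adjusted p = 0.167 by limma, 0.0581 with the replicate block and 0.0254 by voom with the block). Nek2, a kinase that parts the centrosomes, was among the least abundant members, at 5.93, 7.22 and 8.36 FPKM in the controls and 5.28, 6.00 and 4.14 FPKM after I13. Control replicate 1 lay below the highest I13 value, and the log2 fold change of -0.48 (SE 0.18, adjusted p = 0.224 by limma) ran from -0.63 to -0.22 over the fits that left out a sample or a pair. Tpx2, which activates Aurka on the spindle, had a log2 fold change of 0.13 (95% interval -0.15 to 0.41).

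Foxm1, the transcription factor that turns on many genes of this set, was present at 13.9, 15.4 and 14.7 FPKM in the controls and at 10.4, 12.6 and 9.56 FPKM after I13. No I13 value reached a control value, and each pair was lower. Mean levels were 14.7 ± 0.785 and 10.8 ± 1.57 FPKM (SD, n = 3 in either group), with a log2 fold change of -0.44 (SE 0.12, adjusted p = 0.146 by limma, 0.0661 with the replicate block and 0.0180 by voom with the block).

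**Figure D3:**
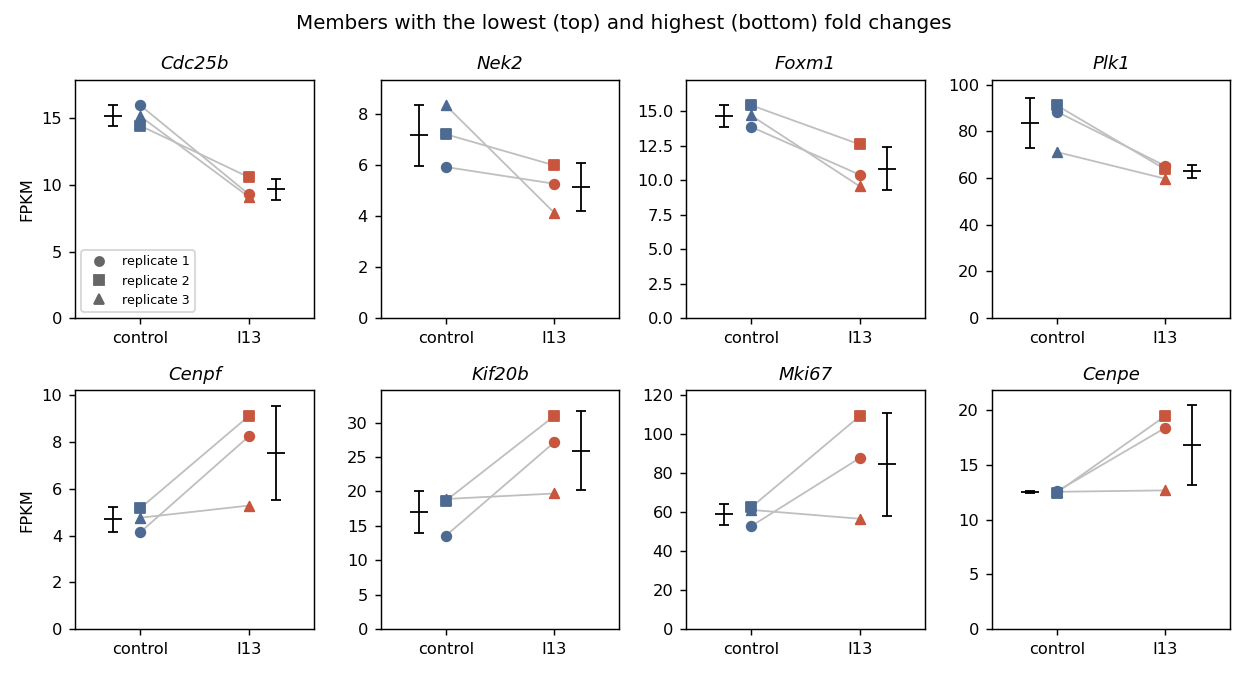
FPKM (vertical axis, from 0) of the 4 mitotic genes with the lowest log2 fold change (top row) and the 4 with the highest (bottom row). Points are single libraries, marker shapes give the replicate number, grey lines join same-numbered samples, and black bars show the mean ± SD of each group (n = 3). In the bottom row I13 replicate 3 (triangle) stays near the controls, for example at 5.28 FPKM for Cenpf, while I13 replicates 1 and 2 lie above them.

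The spindle checkpoint genes split. Bub1b, whose product inhibits the anaphase-promoting complex, stood at 47.2, 51.7 and 43.9 FPKM in the controls and at 45.5, 42.7 and 34.0 FPKM after I13, a log2 fold change of -0.23 (SE 0.13, adjusted p = 0.380 by limma). Each of its pairs was lower after I13, though the groups overlapped. Mad2l1, another part of the inhibitor, had 13.4, 17.4 and 13.6 FPKM in the controls and 14.0, 15.4 and 11.3 FPKM after I13, a log2 fold change of -0.12 (95% interval -0.49 to 0.24, adjusted p = 0.704 by limma). Bub3, which brings Bub1 and Bub1b to kinetochores, differed by -0.24 without overlap of the groups, and its adjusted p was 0.211 by limma. The kinases Bub1 and Ttk, which recruit the checkpoint to kinetochores, had positive log2 fold changes of 0.15 and 0.17, and both were higher after I13 in pairs 1 and 2 and lower in pair 3.

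Exit from mitosis depends on Cdc20 and Ube2c, which activate and charge the anaphase-promoting complex, and on securin (Pttg1) and separase (Espl1). Cdc20 varied widely between controls, with 108, 87.5 and 70.4 FPKM in replicates 1, 2 and 3, and stood at 69.8, 89.4 and 77.1 FPKM after I13. The log2 fold change of -0.16 (SE 0.17, adjusted p = 0.657 by limma) held pair differences of -0.63 in pair 1, 0.03 in pair 2 and 0.13 in pair 3. Ube2c showed the same order of libraries within the controls, 59.0, 46.1 and 35.6 FPKM, and its log2 fold change was -0.01 (95% interval -0.43 to 0.42). Pttg1 differed by -0.05 (95% interval -0.33 to 0.22). Espl1, at 30.6, 30.9 and 28 FPKM in the controls and 25.1, 26.8 and 22.1 FPKM after I13, did not overlap between the groups, and its log2 fold change of -0.28 had an adjusted p of 0.218 by limma and 0.0462 by voom with the block.

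The chromosomal passenger complex, which corrects faulty attachments, consists of the kinase Aurkb, the scaffold Incenp, survivin (Birc5) and borealin (Cdca8). Aurkb was present at 52.3, 57.7 and 51.4 FPKM in the controls and at 47.2, 45.6 and 38.9 FPKM after I13. The groups did not overlap, and the log2 fold change was -0.30 (SE 0.10, adjusted p = 0.205 by limma, 0.0877 with the replicate block and 0.0498 by voom with the block). Its partners differed by less, with log2 fold changes of -0.17 for Incenp, -0.13 for Birc5 and -0.07 for Cdca8, and adjusted p values by limma of 0.367, 0.466 and 0.720. Per length of gene the complex was uneven, since Incenp stood at 89.4 ± 3.67 FPKM (SD, n = 3) in the controls and Aurkb, Birc5 and Cdca8 at 53.8, 35.04 and 33.8 FPKM in mean.

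At the centromere, Cenpa, the histone H3 variant on which kinetochores are built, stayed level at 21.0, 21.4 and 20.02 FPKM in the controls and 19.1, 23.5 and 19.4 FPKM after I13, with a log2 fold change of -0.02 (95% interval -0.27 to 0.23, adjusted p = 0.953 by limma). Ndc80 and Nuf2, which grip the microtubule together, differed by -0.09 and -0.05. Cenpf, a large protein of the outer kinetochore, was the least abundant of the 43 genes and had the highest log2 fold change. It was present at 4.14, 5.17 and 4.76 FPKM in the controls and at 8.25, 9.12 and 5.28 FPKM after I13, so the groups did not overlap but I13 replicate 3 lay close to the controls. The log2 fold change was 0.64 (SE 0.21, adjusted p = 0.185 by limma, 0.0940 with the replicate block and 0.0213 by voom with the block), and it was 0.88 without I13 replicate 3. Cenpe, the kinesin of the kinetochore, had nearly the same value in each control, 12.6, 12.5 and 12.6 FPKM, and 18.4, 19.5 and 12.7 FPKM after I13. Its log2 fold change was 0.40 (SE 0.16, adjusted p = 0.255 by limma), 0.55 in pair 1, 0.64 in pair 2 and 0.01 in pair 3.

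Of the kinesins, Kif11, the motor that pushes the spindle poles apart and a common drug target, stood at 19.3, 22.5 and 19.6 FPKM in the controls and at 23.9, 23.2 and 16.7 FPKM after I13, a log2 fold change of 0.04 (95% interval -0.32 to 0.41, adjusted p = 0.911 by limma). Kif20b, which acts in cytokinesis, was present at 13.5, 18.6 and 18.9 FPKM in the controls and at 27.1, 31.0 and 19.7 FPKM after I13. Pair 1 differed by 1.00, pair 2 by 0.73 and pair 3 by 0.06 on the log2 scale, and the log2 fold change was 0.60 (SE 0.20, adjusted p = 0.191 by limma, 0.111 with the replicate block and 0.0362 by voom with the block). Kif23, a part of centralspindlin, and Kif20a, which carries the passenger complex to the midzone, were higher in all 3 pairs, with log2 fold changes of 0.30 and 0.16 and adjusted p values by limma of 0.385 and 0.607. With samples or pairs left out, Kif23 ran from 0.19 to 0.48 and Kif20a from 0.06 to 0.29. Kif2c, which takes microtubules apart at centromeres, differed by -0.29 without overlap of the groups (adjusted p = 0.201 by limma and 0.0462 by voom with the block), and the chromosome motor Kif4 by -0.06.

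The microtubule bundler Prc1, the spindle proteins Hmmr and Ckap2 and the cytokinesis proteins Anln and Ect2 had log2 fold changes between -0.06 and 0.11. With limma 0 of the 5 had an unadjusted p below 0.05, and the lowest adjusted p was 0.70. Their 95% intervals lay between -0.48 and 0.48.

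Top2a, the topoisomerase that untangles sister chromatids, was the most abundant of the 43 genes, at 135, 144 and 134 FPKM in the controls and 176, 153 and 119 FPKM after I13. The I13 values enclosed the controls, and the log2 fold change was 0.10 (SE 0.14, 95% interval -0.24 to 0.44, adjusted p = 0.740 by limma). Mki67, whose protein coats mitotic chromosomes and is stained as Ki-67 in pathology, stood at 52.7, 62.4 and 61.0 FPKM in the controls and at 87.7, 109 and 56.5 FPKM after I13. I13 replicates 1 and 2 exceeded all controls, whereas I13 replicate 3 lay below 2 of them. The log2 fold change was 0.48 (SE 0.23, adjusted p = 0.311 by limma and 0.171 with the replicate block), and it was 0.27 without I13 replicate 2 and 0.74 without I13 replicate 3.

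The fold changes were also read by gene length. Each gene's length, as the FPKM values imply it, ran from 1531 bases for Ccnb2 to 15433 bases for Cenpf. Of the 11 genes of 6000 bases or more, 7 had a positive log2 fold change (63.6%), with a median of 0.10, and of the 32 shorter genes 7 did (21.9%), with a median of -0.084. The limit of 6000 bases was chosen after the values were seen. Over all genes tested the same classes held 56.6% and 47.0% of positive genes, with medians of 0.039 and -0.023. Across the 43 genes, which share the same 6 libraries and are not independent, Spearman's rho between length and log2 fold change was 0.44, and across all 12163 genes tested it was 0.08. After each library's trend with length was removed, rho across the 43 was 0.40, Cdc25b differed by -0.66 (adjusted p = 0.0400 by limma with the replicate block), and 0 genes were called higher with the block.

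**Figure D4:**
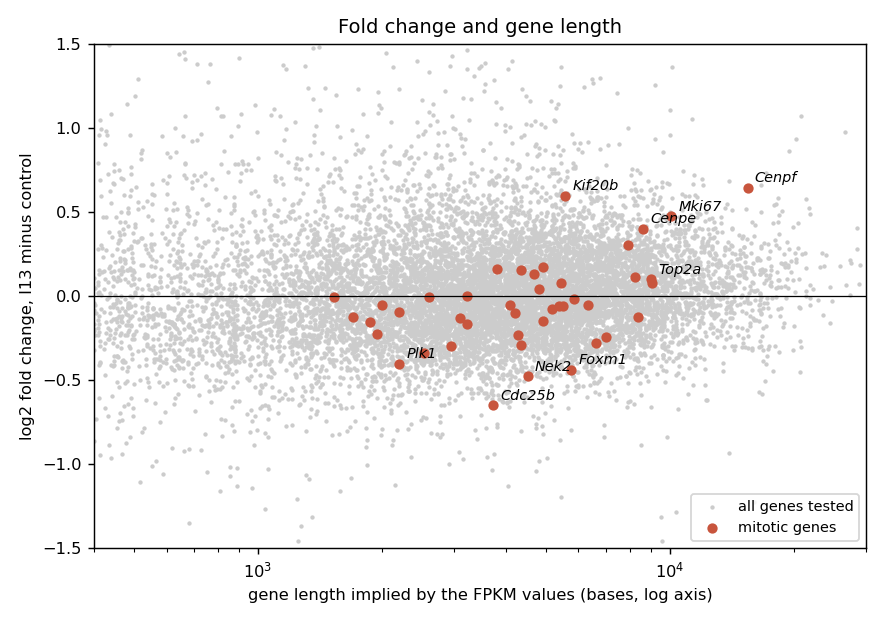
Gene length implied by the FPKM values (horizontal log axis, bases) against log2 fold change (vertical axis, I13 minus control) for the 43 mitotic genes (red) over all genes tested (grey). A further 813 genes lie outside the axes. Cenpf, at 15433 bases and 0.64, is the longest of the 43, and Spearman's rho across them is 0.44.

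Other genes of mitosis that are not among the 43 were read from the same fits, as 6 lists with 117 genes in all. All 117 were tested, 73 were negative (62.4%, against 50.8% of all genes tested), and the median log2 fold change was -0.119. In the fit with limma 0 of the 117 were called, with or without the block, and at an unadjusted p below 0.05 without the block 28 were lower (against 10.8% of all genes) and 2 were higher (against 7.79%). The libraries that stood apart for the 43 genes did so here too, in that I13 replicate 3 held the lowest I13 value in 75.2% of the 117 and control replicate 2 the highest control value in 66.7%. In pair 1 the I13 sample was lower in 43.6% of them, with a median log2 difference of 0.049, and in pair 3 in 83.8%, with a median of -0.210. With the replicate block 3 of the 117 had an adjusted p below 0.05, where 2.99% of all genes did, and all 3 were lower and under the fold change threshold. These were Fzr1, the activator that takes over from Cdc20 at the end of mitosis (19.2 ± 0.966 to 13.6 ± 0.776 FPKM, SD, n = 3 each, log2 fold change -0.49, adjusted p = 0.0447 by limma with the block), the chromosome kinesin Kif22 (-0.43, adjusted p = 0.0488 by limma with the block) and E2f4, a subunit of the DREAM repressor (-0.36, adjusted p = 0.0478 by limma with the block). Cit, a kinase of cytokinesis, had the lowest log2 fold change of the 117, -0.57, and was called by voom with the block, at -0.58 with an adjusted p of 0.00808. It was the only 1 of the 117 called lower in that fit, against 1.05% of all genes tested.

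By list, the other kinetochore and centromere genes had a median log2 fold change of -0.163, with 25 of 36 negative, and ran from Oip5, which helps to load Cenpa, at -0.52 to the kinetochore scaffold Knl1 at 0.26. The other spindle motors and spindle proteins had a median of -0.099, with 12 of 20 negative, and Ckap5, a microtubule polymerase, was the highest at 0.13. Regulators of entry had a median of -0.130, with 13 of 18 negative, from Ensa, which as a phosphoprotein restrains a phosphatase, at -0.32 to Fbxo5, an inhibitor of the anaphase-promoting complex, at 0.31. Subunits of the anaphase-promoting complex and their partners had a median of -0.218, with 12 of 16 negative and Anapc4 highest at 0.18. Condensin and cohesin genes had a median of 0.167, with 11 of 17 positive, from Ncapd2 at -0.37 to Smc4 at 0.39. Of the MuvB and DREAM regulators 5 of 10 were negative, with E2f5 highest at 0.35.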

How the data were processed

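Libraries were made from enriched mRNA with a stranded kit. The authors deposited FPKM values, fragments scaled to gene length and to the mapped total, 1 column per sample, with no pooling and no scaling between samples stated. The submitters' processing notes name Trimmomatic, HISAT2, Cufflinks and HTSeq and the human build hg38, and the labels name the organism as human, but the study calls the cells murine and every row carries a mouse gene ID. The annotation is not given in the sources used here. No mouse genome or promoter sequence was used, so no coordinates or sequences are printed.

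Whole fragments and a whole length were found for all 22413 genes. The search accepted a length when each value lay within about 0.0002 fragments of a whole number. That distance is the limit of the search and not a measured precision. Two-sided tests came from limma 3.58.1 (R 4.3.3), with log2(FPKM + 0.1) as input and eBayes with a trend, in genes averaging at least 0.5 FPKM. Correlations of same-numbered deviations from the group means were 0.145, 0.301 and 0.219 (others -0.258 to 0.050), all above 0.1, so the replicate numbers in the labels were taken as pairs. The labels do not state such pairs, and the correlations come from the same values as the fits. The recovery of fragments and the limma and voom fits, with and without the block, were tested on simulated data. Those data held no replicate effect. The other alternatives, the summaries and the figures were not tested in this way.

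Genes given in full are the standard representative of each role, the 4 lowest and the 4 highest log2 fold changes, and genes called. Members and lists were chosen with earlier results of these data known. Figures used matplotlib 3.10.9 in Python 3.11.15. Alternatives were other pseudocounts, filters and scaling, eBayes without a trend, the block, voom, samples or pairs left out and, chosen after seeing the data, a loess correction for gene length (span 0.5).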

Additional observations from a re-analysis of the deposited data

How the results depend on the processing

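With the replicate block 1 mitotic gene was called lower and 1 had an adjusted p below 0.05 (0 without the block), Cdc25b in both. With voom and the block 2 were called higher, 1 lower and 9 had an adjusted p below 0.05, and 1 of the other mitotic genes, Cit, was called lower. Over all genes tested, voom with the block called 3.08% higher and 1.05% lower. With the length correction and the block, 1 was called lower, 1 had an adjusted p below 0.05, and 1 other mitotic gene was called lower, again Cit (-0.64, adjusted p = 0.0488 from limma). That fit called 242 of all 12163 genes tested, higher or lower. Cdc25b kept a negative log2 fold change in all 20 alternatives, from -0.75 to -0.59, and its adjusted p over the alternatives without the block ran from 0.0550 (voom) to 0.298 (without I13 replicate 1). The block changed no other call among the 43 in the fits on FPKM, and with voom it added those of Cenpf and Kif20b, since voom without it called 0. Leaving out samples or pairs moved the count of negative genes between 17 and 31 and the median between -0.135 and 0.040. The cause of these shifts was not tested.

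Of 860 comparisons of a single gene with its reported value, 806 kept direction and side of the threshold and 49, in 18 genes, changed sign. Under median-ratio scaling the log2 fold change of Ccnb2 was 0.0063, the log2 fold change of Ube2c 0.0069 and the log2 fold change of Ckap2 0.011, and the last was 0.0019 from voom with the block. Leaving out samples gave log2 fold changes from -0.13 to 0.0469 for Ccna2, -0.20 to 0.04 for Ccnb1, -0.13 to 0.12 for Ccnb2, -0.22 to 0.0004 for Mad2l1, -0.31 to 0.0805 for Cdc20, -0.19 to 0.18 for Ube2c and -0.14 to 0.0272 for Pttg1. The same ranges were -0.13 to 0.0269 for Cdca8, -0.11 to 0.044 for Cenpa, -0.20 to 0.0282 for Ndc80, -0.16 to 0.0943 for Nuf2, -0.0928 to 0.21 for Kif11, -0.19 to 0.0608 for Kif4, -0.0489 to 0.23 for Hmmr, -0.18 to 0.16 for Ckap2, -0.0197 to 0.20 for Anln, -0.17 to 0.11 for Ect2 and -0.0419 to 0.25 for Top2a. The values of the 43 genes rest on 327 to 27987 fragments per library, and each group held 3 samples.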

Other observations

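As a reference for the phase before mitosis, 16 genes of DNA replication and S phase entry were read from the same fits. Their median log2 fold change was -0.008, with 8 positive and 8 negative, and 0 were called with or without the replicate block (limma), while 3 (18.8%) had an unadjusted p below 0.05, where 18.6% of all genes tested did. The pattern of single libraries was also present here. I13 replicate 3 held the lowest I13 value in 13 of the 16 genes (81.2%, against 48% of all genes tested). In pair 1 the I13 sample was lower in 25.0% of the 16, in pair 2 in 62.5% and in pair 3 in 75.0%. Ccne2, the cyclin E gene of S phase entry, had the highest log2 fold change, 0.49 (adjusted p = 0.252 from limma), and the helicase subunit Mcm5 the lowest, -0.26 (adjusted p = 0.221 from limma). Rrm2, a subunit of ribonucleotide reductase, stood at 75.1, 78.5 and 79.4 FPKM in the controls and 97.1, 102 and 84.7 FPKM after I13, without overlap (adjusted p = 0.193 from limma).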
